A study of Mus musculus with 25 samples.

Results

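A set of 130 mouse genes with a high level in back skin on postnatal day 23, and lower levels on day 17 and at 9 weeks, was described across 8 ages. The values themselves chose the members. With intensities set to a floor of 32.7 units, a probe set was taken when its day 23 mean was at least 200 units, at least 2 times its day 17 mean and at least 1.5 times its 9-week mean. Of 12422 probe sets that are not controls, 157 met these values. Of these, 17 had no gene symbol or several, and the rule on names left out 8 more, which were Col3a1, Col5a1, Col6a1, Col6a2, Lox, Mmp3, Mmp12 and Myh7. The remaining 132 probe sets stand for 130 genes, since Cma1 and Limch1 have 2 each. Values that involve day 17, day 23 or 9 weeks are therefore given as descriptions with no test.

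In mouse back skin the follicles of the earliest hair cycle move in step. They build hair shafts in growth (anagen), shrink in regression (catagen) and then pause in rest (telogen), and days 17 and 23 are commonly placed in regression and rest. The dermis, the fat layer, the thin skin muscle, vessels and nerves around the follicles change through the cycle too, and they also mature with age. Whole skin holds all of these cells, so in bulk RNA fewer cells of a type and less RNA per cell cannot be told apart.

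Total RNA of whole back skin was hybridised to 25 short-oligonucleotide arrays, each labelled as 1 mouse. There were 3 mice on each of days 1, 6, 14, 17 and 23, at 9 weeks and at 5 months, and 4 mice at 1 year. The labels used here name no strain, genotype, sex or treatment, and age is the only difference between groups that they give. An intensity is summarised from all the probes of a probe set, so it is compared below between mice for 1 probe set and never between genes.

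The tissue markers fitted the label in part. On day 23 the summed intensity of the hair shaft markers Krt31 and Krtap6-2 was 155.3 to 238.7 units over the 3 mice, against 29970.5 to 33180.1 on day 17 and 50775.4 to 60204.8 on day 14. At 9 weeks that sum ran from 200.2 to 18427.2, so the 9-week mice were not alike, and at 1 year it ran from 94.1 to 59995.3. The probe set of the keratinocyte marker Krt14 was at the floor in every mouse of days 6, 14, 17 and 23 and of 9 weeks, while the sum of Krt5, Krt10 and Krt14 on day 23 was 15818.0 to 18071.6. Xist, expressed in females, and Eif2s3y, on the Y chromosome, were both above the floor on 8 arrays, including every array of days 6 and 17, and the labels do not say whether such arrays held RNA of several mice. On day 23, mouse 1 had Xist alone, and mice 2 and 3 had Eif2s3y alone. All 4 mice of 1 year had Eif2s3y alone, while day 14 and 5 months each had 2 mice with Xist alone and 1 with Eif2s3y alone. The ratio of the 3′ to the 5′ probe set of Gapdh, a measure of RNA integrity, was 1.05 to 1.23 at 1 year, 0.87 to 0.93 at 5 months and 0.93 to 0.95 on day 14. The part of sex and of this ratio in the comparisons with 1 year was not tested. The highest intensity on an array was 22033.5 to 36049.0 for days 1, 17 and 23 and 5 months, and 41699.8 to 78877.0 for the other ages. Each age lies wholly in 1 of these ranges, so a difference between the ranges and a difference between ages cannot be told apart where a comparison crosses them.

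On day 23 the median intensity over the 132 member probe sets was 630.9 in the lowest mouse and 770.0 in the highest. The day 17 mice read 282.0 to 285.6 and the 9-week mice 278.6 to 363.4, ages that the rule holds low. Outside the ages of the rule, this median was 423.1 to 460.6 on day 1, 233.0 to 252.0 on day 6 and 166.2 to 181.9 on day 14. It was 447.5 to 554.8 at 5 months and 202.8 to 351.8 at 1 year. Day 1, day 23 and 5 months thus held the 3 highest levels and day 14 the lowest, and no mouse of these 4 ages overlapped with one of another of them except between day 1 and 5 months. Day 1, day 23 and 5 months are also ages of the lower range of highest intensities, as is day 17. What part that has in the levels was not tested.

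**Figure D1:**
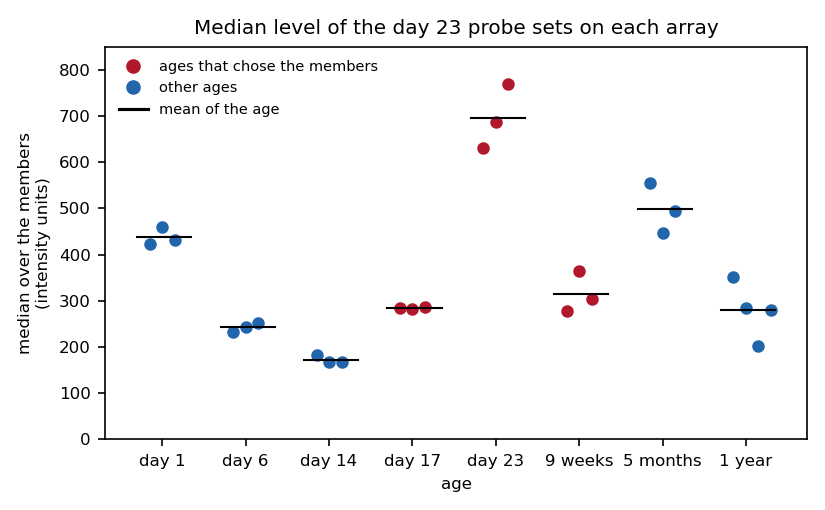
Median intensity (linear axis, intensity units) over the 132 member probe sets on each array, by age. Each point is 1 mouse, the line is the mean of the age, and red marks the 3 ages whose values chose the members. The day 23 mice sit between 630.9 and 770.0, and the lowest points are the day 14 mice at 166.2 to 181.9.

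Day 23 had the highest mean of the 8 ages for 91 of the 132 probe sets, where 9.62% of all probe sets had their highest mean on that day. Because the rule asks for a high day 23, nothing is read from that count. Another 25 were higher on day 1 (25.1% of all probe sets), 13 at 5 months (7.21%), 2 at 1 year (8.57%) and 1 on day 6 (8.41%). Taken over members, the median ratio of the day 23 mean to the mean of another age was 4.2 for day 14, 2.65 for day 6, 1.57 for day 1, 1.42 for 5 months and 2.31 for 1 year, where the same medians over all probe sets were between 0.94 and 1.0. All 3 day 23 mice lay above all mice of day 14 for 126 members (24.9% of all probe sets), of day 6 for 111 (22.4%) and of day 1 for 82 (15.6%). They lay above all 5-month mice for 64 (9.92%) and above all 1-year mice for 100 (18.1%). In the ages of the rule these counts were 128 for day 17 (20.9%) and 116 for 9 weeks (17.2%).

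Over the 132 probe sets, the highest day 23 mouse read a median of 1.32 times the lowest, and 6 probe sets reached a ratio of 2 or more. These were Glycam1 at 41.17, H2-K1 at 3.83, Zfp281 at 2.58, Ikbip at 2.46, Slc30a5 at 2.15 and Dnajb9 at 2.05. Glycam1, a mucin-like ligand of L-selectin made by high endothelial venules of lymph nodes, read 584.8 and 1346.1 in mice 1 and 2 and the floor in mouse 3. It also read 155.9, 449.6 and 154.2 on day 17 and the floor on all other arrays, so its membership rests on 2 mice. Mouse 3 was the highest of the day 23 mice for 70 members and the lowest for 15, and mouse 1 was the lowest for 70. Neither the ratio nor these counts were taken over all probe sets, so nothing is read from them. At the edge of the rule, Kif5b and Hdhd2 stood just inside with day 23 at 2.004 times day 17, and Alx4 at 2.009. Sypl2 at 1.998, Zfp617 at 1.991 and Ahr at 1.988 stood just outside.

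Independent of the rule are the 16 arrays of days 1, 6 and 14, 5 months and 1 year. They were fitted together with limma over 8530 probe sets, and called here means a Benjamini-Hochberg adjusted p under 0.05 over all of them. Of the 132 members 130 passed the filter on low values in these arrays, and Kcna1 and Glycam1 did not. The p-values measure the spread between the mice as labelled. The 5 comparisons share arrays with each other, so their results are given side by side and are not independent.

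From day 1 to day 6, a step across the ranges of highest intensity, 4 members rose and 63 fell, where 10.9% of all probe sets tested rose and 16.5% fell. The median log2 change was -0.75 over the members and -0.14 over all probe sets, and the mice did not overlap for 84 members that were lower (32.3% of all) and 6 that were higher (19.9%). With each array centred on its median, which put the median over all probe sets at 0.17, 7 members rose and 36 fell, against 23.0% and 6.72% of all. From day 6 to day 14, 1 member rose and 31 fell (3.42% and 5.21% of all), with a median of -0.42 over members and 0 over all. Leaving out day 6 mouse 2 or day 14 mouse 3 left 20 calls. These are the ages at which follicles enter and then sustain growth.

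Between day 1 and 5 months, whose arrays have the same range of highest intensities, 31 members were higher at 5 months (13.1% of all probe sets) and 24 were lower (19.8%). The median was 0.1 over members and -0.15 over all. Quantile normalisation gave 42 higher and 20 lower (16.3% and 16.9% of all), and centring on medians, with a median of 0.11 over all, gave 47 and 15 (22.2% and 9.81%). Between day 14 and 1 year, again within 1 range, 64 members were higher at 1 year (17.5% of all) and 6 lower (21.7%), with medians of 0.66 over members and -0.11 over all. Between 5 months and 1 year, across the ranges, 3 members were higher at 1 year (11.1% of all) and 54 lower (16%), with medians of -0.7 and -0.07.

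**Figure D2:**
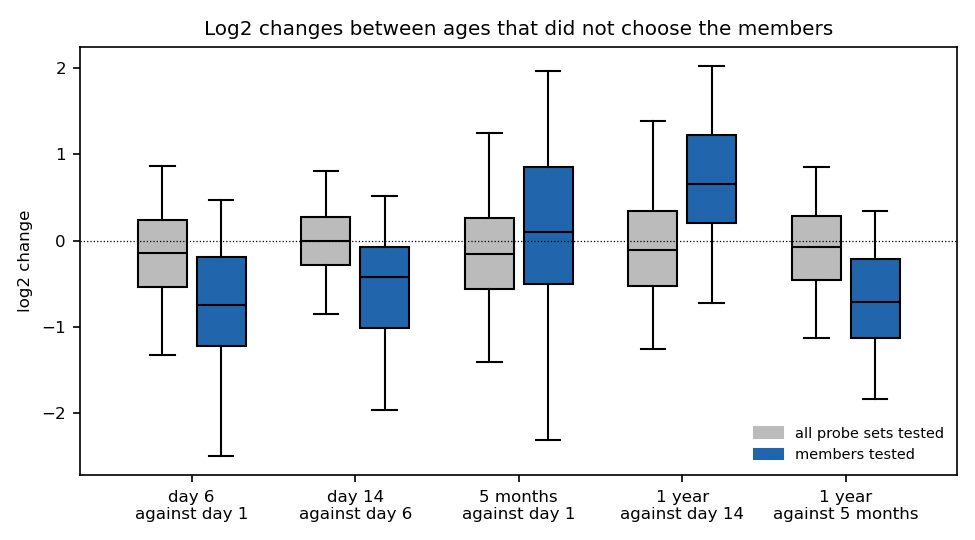
Log2 changes (vertical axis) in the 5 tested comparisons, for all 8530 probe sets tested (grey) and for the 130 members tested (blue). Boxes span the quartiles with the median as a line, and whiskers run from percentile 5 to percentile 95. The member medians are -0.75, -0.42, 0.1, 0.66 and -0.7 from left to right.

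Proteins bound for the matrix or the cell surface are folded in the endoplasmic reticulum, packed into vesicles and passed through the Golgi, and 15 members belong to this secretory pathway. Their highest mean was on day 23 for 14 of the 15, where this held for 91 of all 132 member probe sets and 9.62% of all probe sets. The exception was Gpx7, an oxidoreductase of the endoplasmic reticulum, highest on day 1. The rule asks for a high day 23, and the roles were grouped with the values seen, so nothing is read from this count. Kdelr3, a receptor that returns escaped chaperones to the endoplasmic reticulum, read 1369.5, 1897.1 and 1823.5 units on day 23. On day 17 it read 518.7, 469.2 and 446.2, and at 9 weeks 135.3, 177.9 and 210.3. The day 23 mean was 3.55 times that of day 17 and 9.72 times that of 9 weeks, and no mouse of the 3 ages overlapped with another age. Away from the ages of the rule, Kdelr3 read 1233.5, 1243.4 and 1015.4 on day 1, 582.5, 813.9 and 617.9 on day 6, and 310.3, 295.1 and 338.3 on day 14. From day 6 to day 14 it fell by 1.08 ± 0.22 (SE) on the log2 scale (limma adjusted p = 0.00691). At 5 months it read 389.6, 681.7 and 535.4, lower than on day 1 by a log2 change of -1.15 ± 0.22 (limma adjusted p = 0.00118), with no overlap.

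Serpinh1 (HSP47), the chaperone of procollagen, read 5866.1, 8093.8 and 7245.7 on day 23, against 2511.3, 2315.3 and 2633.2 on day 17. The 3 day 14 mice read 1577.9, 1418.0 and 1517.8, the lowest of all ages. Serpinh1 fell by 1.11 ± 0.17 from day 6 to day 14 (limma adjusted p = 0.00108) and was higher at 1 year than on day 14 by 1.0 ± 0.16 (limma adjusted p = 0.000346). Fkbp11, a prolyl isomerase of secretory cells, read 299.7, 444.4 and 447.5 on day 23 and 133.1, 44.8 and 102.4 on day 17. At 5 months it read 62.9, 174.9 and 109.6, a log2 change of -1.76 ± 0.34 from day 1 (limma adjusted p = 0.00119). Its relative Fkbp7 read 586.2, 736.3 and 722.3 on day 23 and fell by 1.0 ± 0.19 from day 6 to day 14 (limma adjusted p = 0.00388). P4ha2, a subunit of the prolyl hydroxylase that stabilises collagen, read 1488.9, 1775.3 and 1868.0 on day 23, and no mouse of another age was above 1078.7.

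Dnajb9 (ERdj4), a co-chaperone of the unfolded protein response, read 565.1, 826.5 and 1155.7 on day 23 and 991.5, 521.4 and 630.9 at 5 months, and these ages overlapped. All 16 mice of days 1, 6 and 14, 9 weeks and 1 year were below them, at 105.2 to 329.8, and the day 17 mice read 375.8, 311.0 and 434.0. From 5 months to 1 year this probe set of Dnajb9 fell by 2.19 ± 0.22 (limma adjusted p = 1.55e-05), a called fall exceeded among members only by that of Sema3e. A dimmer probe set of Dnajb9 did not share this course. Its means were 221.7 on day 17, 145.6 on day 23, 116.1 at 5 months and 112.6 at 1 year. Cargo receptors and vesicle proteins are members too. Lman1, a receptor for glycoprotein cargo, read 1453.4, 1859.4 and 1774.2 on day 23 and was higher at 1 year than on day 14 by 0.56 ± 0.11 (limma adjusted p = 0.00132). Tmed3, a cargo receptor of the p24 family, read 2261.7, 2473.0 and 2811.2 on day 23 and was higher at 1 year than on day 14 by 0.99 ± 0.15 (limma adjusted p = 0.000207). Ergic1, which cycles between the endoplasmic reticulum and the Golgi, read 641.8, 796.8 and 772.0 on day 23 and 184.5, 154.4 and 83.3 on day 14. It fell by 1.01 ± 0.23 from day 1 to day 6 (limma adjusted p = 0.00527) and by 1.11 ± 0.23 from day 6 to day 14 (limma adjusted p = 0.00641). Over the 15, 7 fell from day 1 to day 6 (16.5% of all probe sets) and 6 fell from day 6 to day 14 (5.21%). At 1 year 8 were higher than on day 14 (17.5%) and 2 lower than at 5 months (16%), and at 5 months 2 were higher and 4 lower than on day 1 (13.1% and 19.8%). Of these, the 2 lower at 1 year and the 2 higher at 5 months are near the share over all probe sets.

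**Figure D3:**
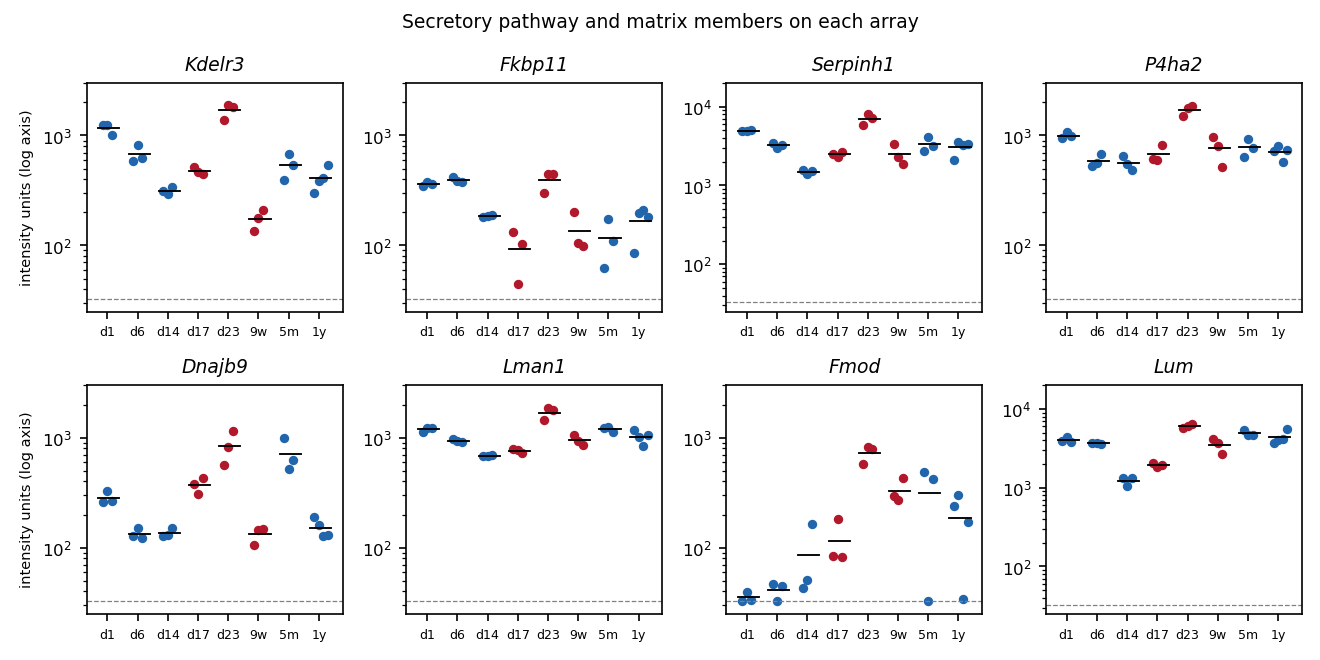
Intensity (log axis, intensity units) of 8 secretory pathway and matrix members on each array, by age. Points are mice, lines are age means, red marks the ages whose values chose the members, and the dashed line is the floor at 32.7 units. For Kdelr3 the day 23 mice read 1369.5 to 1897.1 and the 9-week mice 135.3 to 210.3, and Fmod starts at or near the floor on days 1 and 6.

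The wider list of protein folding and secretion genes has 33 genes on the array and 31 tested, of which Dnajb9, Fkbp11 and Kdelr3 are members and 8 had their highest mean on day 23. From day 1 to day 6, 5 of the 31 rose and 7 fell (10.9% and 16.5% of all probe sets), with a median log2 change of -0.03. From day 6 to day 14, 1 rose and 3 fell (3.42% and 5.21%), with a median of 0.04. At 5 months 4 were higher and 7 lower than on day 1 (13.1% and 19.8%), with a median of -0.03. At 1 year 5 were higher and 6 lower than on day 14 (17.5% and 21.7%), with a median of 0.02, and 7 were higher and 8 lower than at 5 months (11.1% and 16%), with a median of 0.

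A promoter window of 250 bases before the gene start was taken from RefSeq (build GRCm38.p6) for 108 of the 130 member genes. The 2 secretory members below are shown because they hold letters searched for as sites of the unfolded protein response or of clock and related factors. In Kdelr3, at chr15:79516158-79516407 on the plus strand, capitals mark a match to TGACGTGG (an unfolded protein response element) on the opposite strand, 30 bases before the start. In Dnajb9, at chr12:44210069-44210318 on the minus strand, capitals mark CACGTG (an E-box), 107 bases before the start.
Kdelr3: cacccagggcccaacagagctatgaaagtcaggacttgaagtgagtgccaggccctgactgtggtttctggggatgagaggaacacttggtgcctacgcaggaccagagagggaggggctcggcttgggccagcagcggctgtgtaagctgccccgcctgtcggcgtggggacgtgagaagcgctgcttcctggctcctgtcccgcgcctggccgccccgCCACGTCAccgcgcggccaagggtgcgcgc
Dnajb9: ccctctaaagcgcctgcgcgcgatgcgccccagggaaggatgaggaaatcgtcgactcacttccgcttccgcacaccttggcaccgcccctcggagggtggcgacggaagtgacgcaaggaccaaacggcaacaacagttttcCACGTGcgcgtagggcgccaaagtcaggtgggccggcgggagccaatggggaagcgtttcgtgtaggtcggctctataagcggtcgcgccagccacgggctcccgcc
Both strands were searched. TGACGTGG stood in 1 of the 108 member genes (0.926%) and in 0.603% of 27025 genes with a window, and CACGTG in 8 (7.41%) against 6.86%. The longer endoplasmic reticulum stress element was in none of the 108 and in 0.13% of all genes.

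Matrix proteins and secreted signals make up 14 members. Fmod (fibromodulin), a small proteoglycan that binds collagen fibrils, read 579.9, 815.7 and 792.0 on day 23. It read 32.7, 39.8 and 33.8 on day 1 and 84.3, 181.0 and 81.8 on day 17, and no mouse of any other age reached the day 23 range. Its values at 5 months were 488.0, 32.7 and 420.8, so 1 of the 3 mice was at the floor, and the difference from day 1 did not pass the test (2.42 ± 0.92, limma adjusted p = 0.0546). Lum (lumican), another collagen-binding proteoglycan, read 5761.0, 6129.6 and 6419.2 on day 23 and 1312.8, 1049.5 and 1340.7 on day 14. It fell by 1.59 ± 0.15 from day 6 to day 14 (limma adjusted p = 9.93e-06) and was higher at 1 year than on day 14 by 1.82 ± 0.14 (limma adjusted p = 6.64e-07), with no overlap in either case. Sfrp2, a secreted modulator of Wnt signals, read 1119.0, 862.5 and 1558.9 on day 23, and it fell by 1.97 ± 0.24 from day 6 to day 14 (limma adjusted p = 0.000143). Its highest mean was on day 1, and at 5 months it was lower than on day 1 by a log2 change of -0.91 ± 0.24 (limma adjusted p = 0.00937). Serpinf1 (PEDF), a secreted protein that restrains vessel growth, read 2969.0, 3569.1 and 3832.7 on day 23, above every mouse of the other ages, the highest of which read 2384.0.

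Coch (cochlin), a secreted matrix protein, was at or near the floor in all 6 mice of days 1 and 6. It read 629.9, 620.8 and 808.7 on day 23 and 407.2, 167.3 and 508.2 at 5 months, higher than on day 1 by 3.32 ± 0.49 (limma adjusted p = 0.000146), and it fell by 1.86 ± 0.46 from 5 months to 1 year (limma adjusted p = 0.0079). The lead over day 1 is a lower bound, since every day 1 mouse was at the floor. Clec11a, a secreted growth factor of bone-forming cells, read 645.8, 928.6 and 877.5 on day 23 and at 1 year 469.2, 747.0, 680.2 and 719.1. It was higher at 1 year than on day 14 by 1.19 ± 0.24 (limma adjusted p = 0.00157). Kitl, the ligand of the receptor Kit on pigment cells and mast cells, read 602.4, 612.1 and 663.2 on day 23 and 625.1, 863.7 and 493.8 on day 1, and these ages overlapped. The member probe set of Igf1, a growth factor for follicle and muscle, read 454.5, 507.1 and 346.2 on day 23, against 758.3, 474.5 and 506.3 at 5 months, a course that another probe set of the gene did not share. It was higher at 1 year than on day 14 by 1.92 ± 0.36 (limma adjusted p = 0.000994).

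Sparcl1, a matrix protein related to SPARC, read 1489.6, 1257.0 and 1392.8 on day 23 and was higher at 1 year than on day 14 by 1.1 ± 0.23 (limma adjusted p = 0.0019). Pth1r, the receptor of parathyroid hormone and its relative PTHrP, was higher on day 1, at 484.9, 591.8 and 544.1, than on day 23, at 358.0, 527.5 and 347.0, with an overlap. Of the 14, 7 fell from day 1 to day 6 (16.5% of all probe sets), and 9 were higher and 1 lower at 1 year than on day 14 (17.5% and 21.7%). From 5 months to 1 year 8 fell and 1 rose (16% and 11.1%). The summed intensity of the fibroblast markers Col1a1, Col3a1, Dcn and Lum was 48492.5 to 54379.5 on day 17, 59790.3 to 64841.6 on day 23 and 49502.5 to 69021.0 at 9 weeks. At 1 year it was 82513.1 to 100086.6. Its part in the members' values was not tested. In the list of fibrillar matrix and proteoglycan genes, 38 of 41 were tested, 5 are members, and 7 had their highest mean on day 23. From day 1 to day 6, 14 of the 38 fell (16.5% of all probe sets), with a median of -0.44, and from day 6 to day 14, 12 fell and 1 rose (5.21% and 3.42%), with a median of -0.5. At 1 year 15 were higher and 6 lower than on day 14 (17.5% and 21.7%), and 2 were higher and 11 lower than at 5 months (11.1% and 16%).

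Muscle genes gave 11 members, and 8 of them fell from day 1 to day 6, a step at which 16.5% of all probe sets fell. Actc1, the actin of heart and of developing skeletal muscle, read 6575.1, 6028.3 and 5796.7 on day 1 and 476.0, 548.2 and 417.4 on day 6, and fell by 3.68 ± 0.68 on the log2 scale (limma adjusted p = 0.00163). It read 181.2, 83.5 and 116.3 on day 17 and 911.9, 561.7 and 754.1 on day 23, so the day 23 level of this probe set was 0.12 of its day 1 level. A brighter probe set of Actc1 changed less, with means of 10461.5 on day 1, 2346.2 on day 6, 2034.1 on day 17 and 3600.5 on day 23. Cav3, the caveolin of muscle, read 946.5, 967.8 and 1215.0 on day 1 and 135.2, 190.3 and 193.4 on day 6, and fell by 2.6 ± 0.4 (limma adjusted p = 0.000502). On day 23 it was back at 969.7, 1126.2 and 1582.1, which overlapped with day 1. Srpk3, a kinase of splicing factors found in muscle, read 424.3, 496.0 and 524.9 on day 1 and 47.0, 112.8 and 33.6 on day 6, and fell by 3.09 ± 0.42 (limma adjusted p = 0.000209). Its 3 day 23 mice, at 345.7, 307.6 and 369.4, were below those of day 1.

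Pdlim3, a protein of the Z disc, read 1692.0, 1647.5 and 1791.4 on day 23 and 310.6, 280.7 and 308.7 on day 17. It was higher at 1 year than on day 14 by 2.02 ± 0.43 (limma adjusted p = 0.00203), and its 1-year mice ranged from 218.6 to 1483.4. Ank1, an ankyrin with a short muscle form, read 644.0, 656.7 and 562.9 on day 23. This probe set of Ank1 was higher at 1 year than on day 14 by 2.63 ± 0.38 (limma adjusted p = 0.000141). Another probe set of Ank1 went the other way, with means of 1793.5 on day 14 and 1266.6 at 1 year. A further one had 638.9 and 1183.5. Apobec2, a member of the deaminase family found in muscle, read 829.5, 879.5 and 1012.8 on day 23 and 32.7, 45.3 and 36.3 on day 6. At 1 year this probe set of Apobec2 read 1205.8, 289.3, 126.5 and 322.2, and mouse 1 read several times the others. It was higher there than on day 14 by 2.13 ± 0.49 (limma adjusted p = 0.00346). Another probe set of Apobec2 did not share this course, with means of 230.9 on day 6, 269.0 on day 14, 395.6 on day 17 and 129.3 on day 23. Aqp4, the water channel of fast muscle fibres, read 404.8, 270.5 and 443.0 on day 23 and at most 44.4 on day 1. Mef2c, a transcription factor of muscle and other cells, read 226.8, 260.4 and 378.0 on day 23 and fell by 1.69 ± 0.4 from day 1 to day 6 (limma adjusted p = 0.007). Csrp2, a LIM protein of smooth muscle, went the other way at 1 year: it was lower there than on day 14 by a log2 change of -1.21 ± 0.2 (limma adjusted p = 0.000331).

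A wider list of skeletal muscle genes also changed in the steps tested. Of its 35 genes 34 were tested, and 1 of them is a member (Mylpf). From day 1 to day 6, 19 of the 34 fell and 1 rose (16.5% and 10.9% of all probe sets), with a median of -1.1, where the median over the 11 muscle members was -2.18. At 1 year 26 of the 34 were higher and 2 lower than on day 14 (17.5% and 21.7% of all), with a median of 2.28, where 7 of the 11 muscle members were higher and 1 lower, with a median of 1.37. The summed intensity of Ckm, Acta1, Myh4 and Tnnt3 was 29042.9 to 32669.9 on day 17, 46154.7 to 56882.2 on day 23 and 92258.6 to 103597.1 at 9 weeks. The rule holds the members low at 9 weeks, so nothing is read from their lower level there. At 1 year the sum ran from 51343.1 to 161030.9 over the 4 mice. What part the amount of muscle in the samples has in the members' values was not tested.

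Promoter windows were found for 7 of the 11 muscle genes, and 5 of these (Cav3, Srpk3, Apobec2, Mylpf and Pdlim3) hold CAGCTG, the E-box that myogenic factors bind. Among all 108 member genes with a window 16 hold it (14.8%), and among all genes 14.7%. Of these, 3 windows are printed with CAGCTG in capitals, for the members whose fall after day 1 or low day 6 level is described above. Cav3 lies at chr6:112459255-112459504 on the plus strand, with the match 106 bases before the start. Srpk3 lies at chrX:73774155-73774404 on the plus strand and holds CAGCTG at 2 places, 86 and 78 bases before the start. Apobec2 lies at chr17:48432729-48432978 on the minus strand, with the match 23 bases before the start.
Cav3: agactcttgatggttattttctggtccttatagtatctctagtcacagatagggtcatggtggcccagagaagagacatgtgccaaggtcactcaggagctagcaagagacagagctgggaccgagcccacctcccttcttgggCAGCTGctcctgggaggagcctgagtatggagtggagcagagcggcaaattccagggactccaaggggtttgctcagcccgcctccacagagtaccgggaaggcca
Srpk3: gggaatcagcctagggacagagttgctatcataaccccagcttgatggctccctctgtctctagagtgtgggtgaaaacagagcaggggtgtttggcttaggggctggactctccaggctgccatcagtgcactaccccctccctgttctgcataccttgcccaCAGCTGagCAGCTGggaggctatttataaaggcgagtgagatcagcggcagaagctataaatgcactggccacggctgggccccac
Apobec2: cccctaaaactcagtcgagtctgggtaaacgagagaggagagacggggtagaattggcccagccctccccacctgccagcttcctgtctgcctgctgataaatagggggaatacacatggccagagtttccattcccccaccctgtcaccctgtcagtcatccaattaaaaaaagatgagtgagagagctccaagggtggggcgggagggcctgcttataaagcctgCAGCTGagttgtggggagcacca
A form of the site of the factor MEF2 was in 3 of the 108 member genes (2.78%) and in 3.7% of all genes, and none of the 7 muscle genes held it.

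Mast cells store proteases in granules, and the mast cell members were the proteases Cpa3 (carboxypeptidase A3) and Cma1 (a chymase). Cpa3 read 3698.3, 4292.6 and 3731.5 on day 1, 629.0, 662.8 and 692.9 on day 6 and 297.4, 213.0 and 221.8 on day 14. It fell by 2.56 ± 0.23 from day 1 to day 6 (limma adjusted p = 1.08e-05) and 1.45 ± 0.23 from day 6 to day 14 (limma adjusted p = 0.00123). On day 23 it read 1094.2, 1047.7 and 1264.6, above every mouse of days 6, 14 and 17 and of later ages, and below every day 1 mouse. Its 1-year mice, at 111.0, 127.9, 120.6 and 219.3, were below those of 5 months (-1.83 ± 0.22, limma adjusted p = 5.7e-05). The brighter Cma1 probe set read 8399.7, 8947.9 and 10219.6 on day 1 and 2550.8, 2200.1 and 1995.7 on day 23, and it was lower at 1 year than at 5 months by a log2 change of -1.69 ± 0.21 (limma adjusted p = 7.48e-05). The sum of the mast cell markers Cpa3, Cma1 and Mcpt4, which holds both members, was 1483.2 to 1713.7 on day 17 and 3361.2 to 3737.5 on day 23, with Mcpt4, another mast cell chymase, at the floor in every mouse of days 14 and 17. Because both members carry this sum, it is no separate measure of them. In the wider list of mast cell and granulocyte genes 13 of 22 were tested, and no gene of the 13 had its highest mean on day 23. Of the 13, 8 fell from day 1 to day 6 (16.5% of all probe sets), with a median of -0.88, and from day 6 to day 14, 3 fell and 1 rose (5.21% and 3.42%). Lower at 5 months than on day 1 were 7 (19.8%), lower at 1 year than on day 14 also 7 (21.7%), and 6 fell from 5 months to 1 year (16%). Between day 17 and day 23 the means of other mast cell genes went both ways. Tpsb2, a mast cell tryptase, went from 1747.8 to 1504.6 and Kit, the receptor of Kitl, from 338.5 to 281.8, while Hdc, which makes histamine, went from 64.4 to 189.8. Tpsab1, another tryptase, had a mean at the floor at every age after day 1.

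Fgl2, a fibrinogen-like protein of macrophages and T cells, differed from the proteases in that it was low on day 1. It read 369.4, 384.6 and 379.5 on day 1, 709.8, 588.0 and 700.3 on day 17 and 2101.1, 1560.1 and 2096.2 on day 23. At 5 months it read 1603.5, 1164.0 and 1233.8, higher than on day 1 by 1.81 ± 0.17 (limma adjusted p = 1.65e-06), and it fell by 1.62 ± 0.16 to 1 year (limma adjusted p = 1.21e-05), with no overlap in either comparison. Wipf1, a partner of the Wiskott-Aldrich protein in blood cells, read 519.4, 432.3 and 611.0 on day 23 and fell by 1.28 ± 0.27 from 5 months to 1 year (limma adjusted p = 0.00278). The member probe set of Zap70, a kinase of the T cell receptor, read 365.0, 502.8 and 313.4 on day 23. On day 17 mouse 2 was at 315.4 and the other 2 at 65.2 and 67.8. Another probe set of Zap70 went the other way, with means of 735.6 on day 14, 923.4 on day 17 and 171.8 on day 23. A further one was at the floor on day 23. The summed T cell markers Cd3e and Cd3g were low throughout, at 218.6 to 327.7 on day 23 and 128.6 to 199.1 on day 17. Macrophage markers (Lyz2, Cd68 and Csf1r) summed to 4300.9 to 4513.7 on day 23 and 2523.6 to 2646.4 on day 17, and to 5044.4 to 8119.7 at 9 weeks, where Fgl2 read 570.0 to 646.1. The rule holds Fgl2 low at 9 weeks, so nothing is read from its level there. The part of the macrophage markers in the values of Fgl2 was not tested.

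Imprinted genes are expressed from 1 parental copy and are known for high levels around birth that wane as growth slows, and 4 members are of this kind, all with their highest mean on day 1. Plagl1 (Zac1), a zinc finger factor, read 1563.8, 1950.6 and 1842.0 on day 1 and 284.0, 176.7 and 296.7 on day 6, and fell by 2.85 ± 0.3 (limma adjusted p = 4e-05). It reached 111.9, 46.4 and 58.8 on day 14 when it fell by a further 1.87 ± 0.3 (limma adjusted p = 0.00128). On day 23 it read 306.5, 272.1 and 351.8, above every mouse of days 14 and 17, 9 weeks, 5 months and 1 year and overlapping with day 6. A second probe set of Plagl1 had close means on day 17 and day 23, at 133.3 and 141.5, and 40.2 at 9 weeks. Grb10, an adaptor that restrains insulin and IGF receptor signals, read 868.0, 949.4 and 931.8 on day 1 and 294.3, 343.5 and 317.8 on day 23. It was lower at 5 months than on day 1 by a log2 change of -3.46 ± 0.39 (limma adjusted p = 1.1e-05), and 3 of the 4 mice at 1 year were at the floor. Another probe set of Grb10 had means of 192.5 on day 17, 262.7 on day 23 and 212.0 at 9 weeks, short of both ratios of the rule.

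Ndn (necdin), a growth suppressor active in neurons and mesenchyme, read 1122.4, 1037.2 and 849.1 on day 1, 154.4, 145.5 and 115.5 on day 14 and 543.1, 600.2 and 684.5 on day 23. It fell by 1.76 ± 0.16 from day 6 to day 14 (limma adjusted p = 1.07e-05) and was higher at 1 year than on day 14 by 1.04 ± 0.15 (limma adjusted p = 0.000157). Meg3, a long noncoding RNA, read 10658.3, 9779.4 and 11354.1 on day 1 and 2782.0, 1737.9 and 1479.6 on day 23. Its mice differed widely within later ages, as at 9 weeks, where they read 211.7, 1270.1 and 1828.5, and at 5 months, where they read 75.1, 1174.1 and 84.1. The 5-month values were lower than those of day 1 by a log2 change of -5.76 ± 0.97 (limma adjusted p = 0.000423) with no overlap. Of the 4 imprinted members all 4 were lower at 5 months than on day 1 (19.8% of all probe sets), 3 fell from day 1 to day 6 (16.5%) and 3 from day 6 to day 14 (5.21%).

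**Figure D4:**
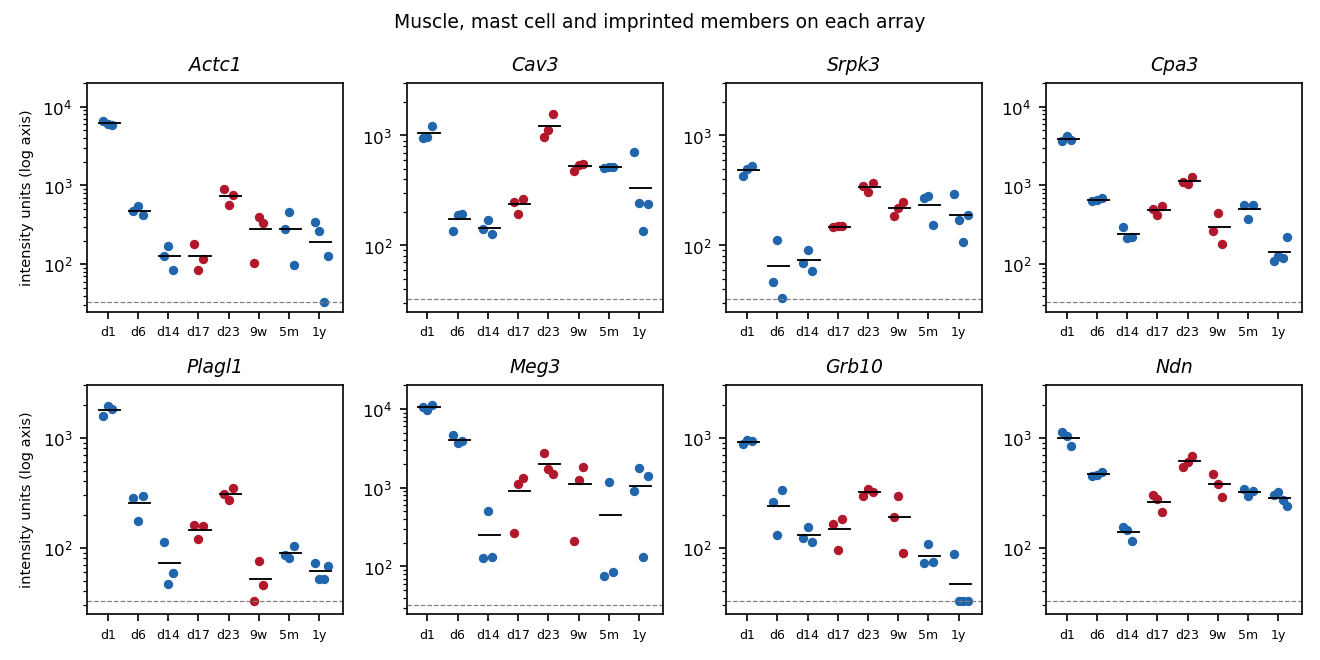
Intensity (log axis, intensity units) of 4 muscle or mast cell members and 4 imprinted members on each array, by age. Points are mice, lines are age means, red marks the ages whose values chose the members, and the dashed line is the floor at 32.7 units. The day 1 mice stand highest for Actc1, Cpa3 and the imprinted genes, and the day 23 mice stand above those of day 17 in each panel.

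Transcription factors that pattern the embryo gave 4 members, and all 4 fell from day 1 to day 6 (16.5% of all probe sets). Alx4, a homeobox factor of the dermis, read 409.9, 374.1 and 502.8 on day 1, 62.7, 56.4 and 116.6 on day 6 and 266.1, 270.5 and 150.4 on day 23, and it fell by 2.52 ± 0.44 to day 6 (limma adjusted p = 0.00116). Zic1, a zinc finger factor of dorsal mesoderm and neural tissue, read 374.3, 444.8 and 416.1 on day 1 and 454.6, 403.8 and 437.8 on day 23, which overlapped. It fell by 1.65 ± 0.34 to day 6 (limma adjusted p = 0.00332). Satb1, a chromatin organiser, read 671.6, 777.5 and 373.6 on day 1 and 520.7, 714.3 and 652.3 on day 23, and fell by 1.66 ± 0.36 to day 6 (limma adjusted p = 0.00458). Meox2, a homeobox factor of somites and vessels, had 3 close day 23 values of 307.1, 316.9 and 309.1. To day 6 it fell by 1.0 ± 0.36 (limma adjusted p = 0.0498), a call that was lost in 18 of 25 other settings, among them each fit without 1 of the day 1 or day 6 mice.

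The circadian clock drives daily rhythms of transcription, and 3 members lie on its output side. Dbp, a leucine zipper factor with a strong daily rhythm, was at or near the floor in all 12 mice of days 1 to 17, at 32.7 to 42.1. On day 23 it read 469.3, 443.8 and 572.8. It then read 205.0, 331.3 and 299.8 at 9 weeks, 1022.8, 340.3 and 793.4 at 5 months and 270.3, 120.3, 155.1 and 271.2 at 1 year, so every mouse from day 23 on stood above every younger one. Dbp was higher at 5 months than on day 1, where all mice were at the floor, by at least 4.32 ± 0.39 on the log2 scale (limma adjusted p = 1.5e-06). It was higher at 1 year than on day 14 by 2.43 ± 0.37 (limma adjusted p = 0.000188) and fell by 1.76 ± 0.37 from 5 months to 1 year (limma adjusted p = 0.00275). With the floor at the 40th percentile the lead of 1 year over day 14 was 0.61 and did not pass.

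Nr1d2 (REV-ERB beta), a nuclear receptor that represses clock genes, read 325.9, 372.2 and 345.2 on day 17 and 1240.6, 1179.5 and 1238.8 on day 23. It read 1164.2, 855.7 and 1176.4 at 5 months, higher than on day 1 by 1.9 ± 0.27 (limma adjusted p = 0.000105), and 892.1, 556.0, 313.4 and 602.6 at 1 year, higher than on day 14 by 1.22 ± 0.25 (limma adjusted p = 0.00185). Klf9, a zinc finger factor that responds to glucocorticoids and to the clock, read 193.8, 133.1 and 213.8 on day 17 and 1163.8, 644.4 and 985.2 on day 23. Klf9 was higher at 5 months than on day 1 by 2.86 ± 0.3 (limma adjusted p = 5.62e-06) and at 1 year than on day 14 by 1.47 ± 0.28 (limma adjusted p = 0.000993). All 3 genes were called lower at 1 year than at 5 months, where 16% of all probe sets and 41.5% of the members tested were lower. Without 5-month mouse 1 or mouse 3 that call was lost for Nr1d2, and without 5-month mouse 2, or with arrays centred on their medians, for Klf9.

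**Figure D5:**
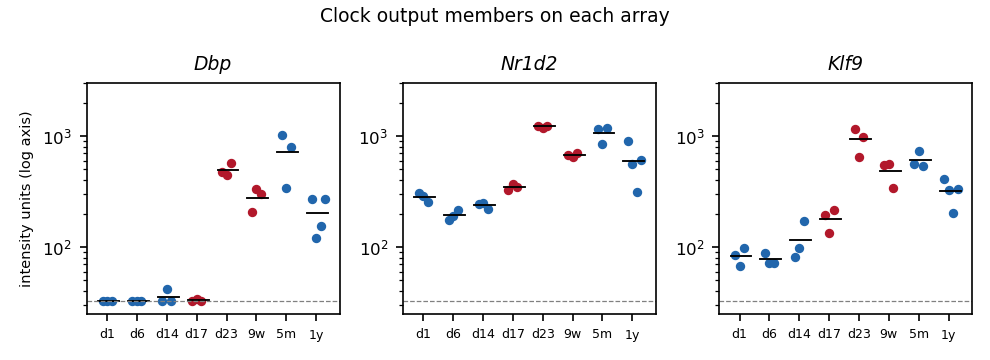
Intensity (log axis, intensity units) of the 3 clock output members on each array, by age. Points are mice, lines are age means, red marks the ages whose values chose the members, and the dashed line is the floor at 32.7 units. Dbp reads 32.7 to 42.1 up to day 17 and 443.8 to 572.8 on day 23.

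Other genes of the clock moved with and against these members, as a description. Nr1d1 (REV-ERB alpha) had means of 458.6 on day 17, 806.6 on day 23 and 369.4 at 9 weeks, while Arntl (BMAL1), an activator of the clock, had 681.6 on day 17 and 324.0 on day 23. The glucocorticoid-responsive genes Fkbp5 and Zbtb16 went from 605.2 and 821.0 on day 17 to 3166.7 and 3336.1 on day 23, and to 4570.7 and 4216.9 at 9 weeks. These genes were chosen from their list after their values were seen. In that list of clock and glucocorticoid genes, 18 of 21 were tested, Dbp and Nr1d2 among them. Of the 18, 3 rose and 5 fell from day 1 to day 6 (10.9% and 16.5% of all probe sets), with a median of -0.44, and from day 6 to day 14, 2 fell (5.21%). At 5 months 7 were higher and 2 lower than on day 1 (13.1% and 19.8%), with a median of 0.46. At 1 year 8 were higher than on day 14 (17.5%), with a median of 0.45, while 3 were higher and 3 lower than at 5 months (11.1% and 16%), with a median of -0.24. The labels give no hour at which skin was taken, so hour and age cannot be told apart.

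Nr1d2 is printed because it is the only clock member whose window holds AGGTCA, the core site of nuclear receptors (capitals, 77 bases before the start, chr14:18239107-18239356, minus strand).
Nr1d2: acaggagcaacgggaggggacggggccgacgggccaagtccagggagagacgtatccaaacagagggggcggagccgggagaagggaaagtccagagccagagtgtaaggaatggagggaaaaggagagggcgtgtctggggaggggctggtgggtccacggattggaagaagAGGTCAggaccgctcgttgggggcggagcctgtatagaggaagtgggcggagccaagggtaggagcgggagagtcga
AGGTCA stood in 19 of the 108 member genes (17.6%) and in 15.8% of all genes. Neither CACGTG nor TTANNTAA, the D-box that Dbp binds, was found in the 3 clock members' windows.

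Lipid and sterol metabolism gave 14 members, 11 of them highest on day 23, where this held for 91 of all 132 member probe sets. As the rule asks for a high day 23, nothing is read from that count. Enzymes of cholesterol synthesis among the 14 also read high at 1 year. Msmo1, a sterol methyl oxidase, read 1191.8, 1612.3 and 1777.7 on day 23 and 1968.3, 1366.3, 1200.1 and 1569.6 at 1 year, which overlapped. It rose by 1.26 ± 0.24 from day 1 to day 6 (limma adjusted p = 0.00178), 1 of 4 members to rise there, and was higher at 5 months than on day 1 by 1.62 ± 0.24 (limma adjusted p = 0.000124). Idi1, the isomerase of isopentenyl diphosphate, was highest at 1 year, at 2108.2, 1947.8, 1833.5 and 2263.8, against 1020.1, 1778.3 and 1320.4 on day 23, and it rose by 1.19 ± 0.21 from 5 months to 1 year (limma adjusted p = 0.000874). In the list of cholesterol synthesis genes, of which Idi1 and Msmo1 are members, 10 of 15 tested rose from day 1 to day 6 (10.9% of all probe sets) and 11 rose from 5 months to 1 year (11.1%), both steps across the ranges of highest intensity. Of these 15, 2 had their highest mean on day 23. Mgll, the lipase of monoacylglycerols, read 2091.6, 2443.1 and 2198.8 on day 23 and was higher at 1 year than on day 14 by 1.66 ± 0.25 (limma adjusted p = 0.000188), though 1-year mouse 3, at 1337.2, read less than any day 23 mouse.

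Other lipid members act on lipid signals and acyl chains. Plpp3, a phosphatase of lipid phosphates, read 2295.6, 2298.0 and 2856.5 on day 23 and 2543.1, 1488.7 and 2137.6 at 5 months. Plpp3 was higher at 5 months than on day 1 by 1.09 ± 0.16 (limma adjusted p = 0.000177) and fell by 1.01 ± 0.15 to 1 year (limma adjusted p = 0.000316). Acsl4, which activates long unsaturated fatty acids, read 594.3, 577.5 and 655.1 on day 23 and fell by 1.4 ± 0.26 from 5 months to 1 year (limma adjusted p = 0.0013). Aadac, a lipid esterase, read 193.0, 263.7 and 289.8 on day 23 and 273.5, 248.8 and 273.4 at 5 months, and was at or near the floor on day 14. Apoc4, an apolipoprotein, was at the floor in all 9-week and 5-month mice and read 175.7, 321.5 and 210.9 on day 23. Over the 14, 7 were higher and 1 lower at 5 months than on day 1 (13.1% and 19.8% of all probe sets), 6 were higher at 1 year than on day 14 (17.5%), and 7 fell and 2 rose from 5 months to 1 year (16% and 11.1%). The summed fat cell markers Adipoq and Fabp4 were 4066.0 to 4901.2 on day 17, 6574.2 to 8321.5 on day 23 and 6264.1 to 11002.9 at 9 weeks, and their part in these values was not tested.

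Semaphorins are secreted guides of axons and vessels, and 3 of them are members together with the receptor Nrp1 (neuropilin 1). All 4 had their highest mean on day 23, as did 91 of all 132 member probe sets, and under the rule nothing is read from that count. Sema3b read 511.3, 378.0 and 611.9 on day 23, and at 1 year 367.2, 470.8, 345.1 and 458.6, higher than on day 14 by 2.71 ± 0.35 (limma adjusted p = 4.84e-05). Sema3e read 625.3, 661.1 and 937.0 on day 23 but 88.8, 32.7, 87.3 and 109.4 at 1 year, lower than at 5 months by a log2 change of -2.73 ± 0.42 (limma adjusted p = 0.000331). The member probe set of Nrp1 read 469.6, 491.6 and 758.4 on day 23 and 178.2, 175.1 and 154.5 at 9 weeks. It fell by 1.61 ± 0.35 from day 1 to day 6 (limma adjusted p = 0.00403) and by 1.79 ± 0.32 from 5 months to 1 year (limma adjusted p = 0.00101). Another probe set of Nrp1 did not share the low level at 9 weeks, with means of 603.9 on day 17, 1229.0 on day 23 and 1170.2 at 9 weeks. The rule asked for a high day 23 of Sema3b and Sema3e alike, so nothing is read from it. Their courses to 1 year differed, and that difference between the genes was not tested.

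Enzymes of amino acid and one-carbon metabolism and of detoxification gave 6 members. Gatm, which makes the precursor of creatine, read 952.4, 911.7 and 946.4 on day 23, with close values in the 3 mice, and fell by 2.08 ± 0.24 from day 1 to day 6 (limma adjusted p = 7.7e-05). Psat1, of serine synthesis, was the only member with its highest mean on day 6, at 2571.1, 2994.6 and 2656.9, and read 1872.3, 2392.6 and 2021.0 on day 23. It fell by 1.05 ± 0.11 from day 6 to day 14 (limma adjusted p = 3.87e-05). Mthfd2, a folate enzyme of mitochondria, read 1095.3, 1555.9 and 1333.1 on day 23 and 459.0, 302.8 and 488.2 at 9 weeks. Mgst1, a glutathione transferase of membranes, read 2742.3, 3258.3 and 3348.4 on day 23, above all other mice, the highest of which read 1825.5.

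The highest ratio of day 23 to the larger of the day 17 and 9-week means belonged to Kcna1, a voltage-gated potassium channel of axons, at 4.31. It read 420.0, 342.0 and 478.9 on day 23 and at most 120.9 in any other mouse. Pmp22, a myelin protein of Schwann cells, read 4358.4, 4034.9 and 4041.7 on day 23 and at most 2600.2 elsewhere. The myelin gene Mbp, no member, read 1118.3 to 1399.6 on day 23 and 681.6 to 760.4 on day 17, and was the only 1 of 3 Schwann cell markers found. In the list of nerve and Schwann cell genes, 11 of 19 were tested and Pmp22 is the only member. Of the 11, 2 had their highest mean on day 23 (9.62% of all probe sets). Celf2, a splicing regulator, read 573.4, 730.1 and 757.5 on day 23 and fell by 1.7 ± 0.27 from day 1 to day 6 (limma adjusted p = 0.000608). Eef1b2, a translation elongation factor, read 270.9, 245.2 and 304.4 on day 23 and overlapped there with day 1, at 323.1, 213.3 and 221.8. B3galt2, a galactosyltransferase, had its highest means on days 1 and 6 and read 212.0, 236.2 and 164.8 on day 23. Otulinl read 281.2, 318.7 and 513.3 on day 23 and fell by 1.27 ± 0.32 from 5 months to 1 year (limma adjusted p = 0.00849).

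Among the remaining members, Rnase2b, an eosinophil-type ribonuclease, read 32.7 to 72.3 on days 1 and 6. It read 1058.1, 761.8 and 887.2 on day 23 and 952.0, 785.1 and 972.6 at 5 months, higher than on day 1 by 4.05 ± 0.42 (limma adjusted p = 5.68e-06). Pcp4l1 read 600.7, 458.2 and 607.0 on day 23 and was higher at 5 months than on day 1 by 2.38 ± 0.46 (limma adjusted p = 0.00127). Sprr2g, a cornified envelope protein, read 2113.4, 2276.5 and 2479.4 on day 1, 199.9, 210.1 and 233.1 on day 14 and 1534.0, 1851.1 and 1586.6 on day 23. It fell by 2.64 ± 0.16 from day 6 to day 14 (limma adjusted p = 2.07e-07). Polr2i, a subunit of RNA polymerase II, also fell there, by 2.11 ± 0.32 (limma adjusted p = 0.000859). The member probe set of Enpep, an aminopeptidase of vessels, was highest at 5 months, at 1153.1, 451.4 and 669.0, and read 396.2, 519.0 and 438.5 on day 23. Another probe set of Enpep did not share this course, with means of 696.3 on day 1, 624.2 on day 17, 542.4 on day 23 and 486.3 at 5 months. Dab2, an adaptor of endocytosis, fell by 2.1 ± 0.19 from 5 months to 1 year (limma adjusted p = 6.47e-06). AI506816, named here by its clone, varied widely within ages, at 343.2, 258.5 and 228.6 on day 23 and 173.0, 366.9 and 32.7 on day 6. Eps15, another endocytic adaptor, rose by 0.86 ± 0.19 from day 1 to day 6 (limma adjusted p = 0.00405), 1 of the 4 members that rose in that step.

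Other probe sets of the same genes did not always repeat the pattern. For 50 member genes there are 63 further probe sets, and 31 of these averaged at least 200 units on day 23. Of the 31, 25 were higher on day 23 than on day 17 and 20 were higher than at both day 17 and 9 weeks, and of all 63 only 1, for Aqp4, met both ratios of the rule. A second probe set of Igf1 had means of 2221.8 on day 17 and 1098.2 on day 23, the reverse of the member probe set. Another one for Mylpf, the light chain of fast muscle myosin, had 1227.7 on day 17, 1527.2 on day 23 and 1709.7 at 9 weeks. For H2-K1, a class I antigen presenting molecule, the brightest probe set had 7901.5 on day 17, 11672.2 on day 23 and 19668.6 at 9 weeks. A second probe set of Klf9 had 1297.3, 2787.2 and 2233.8 at these ages, one of Cav3 had 249.1, 789.3 and 761.5, and one of Ndn had 326.9, 819.8 and 572.8, each with its middle value, that of day 23, the highest of the 3. Of the 132 member probe sets 21 have a letter before the ending of their name, which on these arrays marks a design with relaxed rules or with probes shared by several sequences, among them those of Mylpf, Apobec2, Cav3 and Ndn.

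The number of probe sets that met the rule depended on single mice. Without day 23 mouse 3 the rule took 112 probe sets, 102 of them shared with the 132, and without day 23 mouse 1 it took 160, with 118 shared. Scaling each array to the same median gave 134 probe sets with 108 shared, and quantile normalisation 140 with 117 shared.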

How the data were processed

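The authors deposited 1 intensity per probe set and array on a linear scale. Which software and scanner made them is not stated in the labels or headers. Each deposited column was already scaled, since its mean without the lowest and highest 2% was 499.89 to 500.85. Such scaling holds that trimmed mean constant between arrays, and the highest 2% of values lie outside it. Intensities below 32.7, the percentile 20 of the table, were set to that floor, and log2 values were taken. Probe sets above 127.8 (percentile 40) on at least 3 of 16 arrays were kept, without 66 control probe sets. The 16 arrays of the ages that the member rule did not use were fitted in 1 model with limma 3.58.1 (R 4.3.3) with an intensity trend and Benjamini-Hochberg adjustment over 8530 probe sets. Tables and figures were made with Python 3.11.15, pandas 2.3.3 and matplotlib 3.10.9. The number of arrays limits the precision.

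Probe sets were named from the platform's annotation: 10855 had 1 symbol, 396 had several and 1237 had none, and 10839 symbols were matched to RefSeq by gene number. The members and gene lists were chosen with earlier results of these data known, and the groups by role were made after the values were seen. Genes were named by rule: the 12 highest ratios of day 23 to the larger of the day 17 and 9-week means, up to 6 members of each list with the highest day 23 mean, the 5 largest called changes without overlap in each direction and comparison, and the 3 probe sets on each side of the threshold. Other genes were named after their values were seen. Mouse numbers only name mice: arrays with the same number at different ages had a median correlation of deviations of 0.01 over 30 pairs (-0.12 to 0.41), against -0.006 for 72 pairs with different numbers. The fit was tested on simulated data. Alternatives were another normalisation, floor, pseudocount, filter, trend, array weights, all 25 arrays in 1 fit, the mouse number as a block, and each mouse left out.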

Additional observations from a re-analysis of the deposited data

Results flagged for a closer look

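At 1 year, the only age with 4 mice, 60 named members were looked at, and for 7 of them 1 mouse stood apart from the other 3. Chance gives this in about 1 of 20 groups of untied values. That rate does not hold for Grb10 and Apoc4, whose other 3 mice were tied at the floor. Mouse 1 was high for Grb10, at 87.1 units with the others at the floor of 32.7, and for Apoc4, at 40.6 with the others at the floor. It was low for Fkbp11, at 85.4 against 180.0 to 209.5. Mouse 3 was low for Coch, at 32.7 against 115.2 to 135.3, and for Polr2i, at 106.2 against 272.7 to 302.3. Mouse 4 was high for Kcna1, at 67.8 against 32.7 to 35.6, and low for Csrp2, at 151.5 against 226.3 to 245.8.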

How the results depend on the processing

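The number of members called kept within 1.5 times of its value in every alternative run, except for the following. From day 1 to day 6 it was 43 with arrays centred on their medians, against 67. From day 6 to day 14 it was 50 with array weights and 20 without day 6 mouse 2 or without day 14 mouse 3, against 32. With 1 mouse left out, the counts ran from 48 to 74 for day 1 to day 6, 20 to 43 for day 6 to day 14, 42 to 69 for day 1 to 5 months, 55 to 84 for day 14 to 1 year and 39 to 73 for 5 months to 1 year, and the rule took 112 to 160 probe sets. The cause of these shifts was not tested. With the mouse number as a replicate block the counts were 67, 32, 55, 70 and 57, as without it, and the block changed no count. Over 281 called changes of members and 7025 values, 0 changed sign and 588 values in 121 changes no longer passed. Called in every alternative were 37 of 67, 15 of 32, 31 of 55, 40 of 70 and 37 of 57 changes. With the floor at percentile 40, Slc30a5 and Aadac came to no difference where both ages lay at the floor. Dim probe sets near the floor give the least certain folds.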
